A study of Mus musculus with 6 samples.

Results

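The Ly6 surface antigen genes of mouse chromosome 15 were followed in RNAseq of monocytic myeloid-derived suppressor cells (M-MDSCs). The 7 genes Ly6a, Ly6c1, Ly6c2, Ly6d, Ly6e, Ly6g and Ly6i were chosen by name and are 7 of the 34745 genes of the count table. M-MDSCs are immature myeloid cells that restrain T cells. They were induced in culture from bone marrow with GM-CSF and IL-6, and sorted by flow cytometry with antibodies to CD11b, Ly6C and Ly6G. The mTOR-/- group came from Lyz-mTOR mice, in which floxed mTOR alleles are removed by Cre expressed from the Lyz (lysozyme) locus of myeloid cells, and the WT group came from wild-type mice. Each group held 3 libraries. The strain background of the Lyz-mTOR mice and the ages are not given, nor whether a library pooled animals or whether the WT mice carried Cre. M-MDSCs are defined as CD11b+Ly6G-Ly6C high cells, so the proteins of Ly6c1, Ly6c2 and Ly6g are the antigens of the sort itself, and the transcripts below were read in cells that had been gated on them. How the gates were set in each genotype was not analysed here.

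Ly6 proteins are small and cysteine-rich. They share the fold of the urokinase receptor and are held on the outer face of the plasma membrane by a glycosylphosphatidylinositol (GPI) anchor. Ly6C, encoded by Ly6c1 and Ly6c2, marks inflammatory monocytes, and Ly6G marks neutrophils and granulocytic MDSCs. Ly6a encodes Sca-1, a marker of stem and progenitor cells that is induced by interferons. Ly6e is expressed in many tissues and is also induced by interferons, Ly6i is a less studied relative expressed in myeloid cells, and Ly6d marks progenitors committed to the B lineage.

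The coding sequences show how close the genes are and whether a read can be placed. The lines below give the first 150 coding bases (1 read length) of 5 members from the GENCODE M21 transcripts of GRCm38. Bases that differ from Ly6c2 at the same position are in capitals.
Ly6c2: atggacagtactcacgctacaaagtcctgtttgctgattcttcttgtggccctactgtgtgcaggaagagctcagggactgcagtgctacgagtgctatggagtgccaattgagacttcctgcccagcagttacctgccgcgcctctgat
Ly6c1: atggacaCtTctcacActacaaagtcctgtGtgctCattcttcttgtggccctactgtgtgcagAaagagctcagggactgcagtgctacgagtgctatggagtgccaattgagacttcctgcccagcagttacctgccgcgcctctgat
Ly6a: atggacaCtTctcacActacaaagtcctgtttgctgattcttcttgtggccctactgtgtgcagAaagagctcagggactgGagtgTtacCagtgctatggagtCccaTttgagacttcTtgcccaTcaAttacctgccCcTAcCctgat
Ly6i: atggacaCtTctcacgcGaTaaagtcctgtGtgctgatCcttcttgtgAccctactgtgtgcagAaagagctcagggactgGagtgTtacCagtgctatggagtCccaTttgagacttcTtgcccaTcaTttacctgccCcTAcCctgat
Ly6g: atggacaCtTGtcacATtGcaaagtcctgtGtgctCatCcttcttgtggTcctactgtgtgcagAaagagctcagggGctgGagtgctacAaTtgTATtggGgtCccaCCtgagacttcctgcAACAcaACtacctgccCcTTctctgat
Ly6c1 differed from Ly6c2 at 6 of these 150 bases, Ly6a at 16, Ly6i at 20 and Ly6g at 31. Over the whole coding sequence, 393 bases in both, Ly6c1 and Ly6c2 were 97.7% identical. Ly6a and Ly6i were 86.3% identical, and Ly6g was 78.1% identical to Ly6c2. Ly6e and Ly6d stood apart, with at most 53.5% identity to any other member. Of the distinct stretches of 150 bases in the annotated transcripts of Ly6c1, 2.29% occurred letter for letter in another gene, which was Ly6c2. The share was 1.42% for Ly6c2 and 0% for each of the other 5 members. Over stretches of 50 bases, 32.8% of Ly6c1, 19.0% of Ly6a, 14.5% of Ly6c2, 4.76% of Ly6i and 0.448% of Ly6g were shared with another gene. For Ly6c1 and Ly6a those were other genes of the family, whereas the stretches of Ly6c2 were shared with 538 genes. Only exact matches were counted and the share of reads that could be placed in either gene was not measured, so the division of reads between Ly6c1 and Ly6c2 is uncertain.

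The start sites of Ly6c1, Ly6c2 and Ly6g are shown because these genes encode the antigens of the sort. RefSeq windows of GRCm38.p6 were available for these 3 of the 7 members, from 250 bases before to 50 bases after a start. The window whose start lay nearest that of the gene in the count table was taken. Capitals mark 3 core promoter and myeloid motifs: TATAAA, to which the basal machinery binds, CCAAT, bound by NF-Y, and GAGGAAGT, of the kind bound by ETS factors such as PU.1.
Ly6c2, chr15:75111922-75112221, reverse strand: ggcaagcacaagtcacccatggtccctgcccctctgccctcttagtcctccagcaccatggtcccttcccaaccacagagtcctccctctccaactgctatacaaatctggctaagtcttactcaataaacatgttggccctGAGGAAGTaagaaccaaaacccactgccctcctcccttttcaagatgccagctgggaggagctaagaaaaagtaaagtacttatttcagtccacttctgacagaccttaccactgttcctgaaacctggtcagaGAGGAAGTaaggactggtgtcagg
Ly6c1, chr15:75048788-75049087, reverse strand: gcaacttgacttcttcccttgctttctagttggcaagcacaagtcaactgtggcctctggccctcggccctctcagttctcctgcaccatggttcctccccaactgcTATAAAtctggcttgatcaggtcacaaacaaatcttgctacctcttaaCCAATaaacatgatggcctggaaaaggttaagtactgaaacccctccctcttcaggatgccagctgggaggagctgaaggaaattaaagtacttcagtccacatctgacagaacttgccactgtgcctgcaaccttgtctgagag
Ly6g, chr15:75155011-75155310, forward strand: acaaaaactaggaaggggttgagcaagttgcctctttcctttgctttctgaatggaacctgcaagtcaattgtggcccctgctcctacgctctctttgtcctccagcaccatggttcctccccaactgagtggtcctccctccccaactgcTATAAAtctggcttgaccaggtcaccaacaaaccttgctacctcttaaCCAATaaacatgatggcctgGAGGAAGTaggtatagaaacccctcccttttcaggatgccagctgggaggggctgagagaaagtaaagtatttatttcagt
Where they overlapped in an alignment, the Ly6c1 window was 73.8% identical to that of Ly6c2 and 76.3% identical to that of Ly6g, and those of Ly6c2 and Ly6g were 70.3% identical. TATAAA stood at position -143 from the start in Ly6c1 and at -99 in Ly6g, and was not in the Ly6c2 window. It occurs in 13.6% of all 32851 windows. CCAAT stood at -95 in Ly6c1 and at -51 in Ly6g, and was not found for Ly6c2 (37.4% of all windows). GAGGAAGT stood at -108 and 26 in Ly6c2 and at -31 in Ly6g, and was not found for Ly6c1 (3.20% of all windows). AATAAACA, of the kind bound by forkhead factors, was in each of the 3 windows and in 1.86% of all windows, and it overlaps CCAAT in Ly6c1 and Ly6g. TGTGGT, a RUNX element, was in the Ly6c2 window alone at -179 on the reverse strand, and in 16.8% of all windows. The interferon elements TTCNNNGAA (GAS) and the ISRE were in none of the 3 windows, against 8.30% and 3.44% of all windows. These motifs were picked after the sequences had been seen, both strands were searched, and a match is a string of letters, not a measured binding site.

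Total counts per library were 12317507 to 12903191 in the mTOR-/- group and 14066578 to 14768126 in the WT group. Of the 34745 genes, 12537 passed the filter on low counts and were tested by the quasi-likelihood method of edgeR, and p-values were adjusted over all of them (Benjamini-Hochberg). A gene was called at an adjusted p under 0.05. Levels are CPM, counts scaled to the library total after TMM normalisation, and fold changes are mTOR-/- over WT unless stated. Itgam, which encodes CD11b, stands in the count table under separate entries. The larger had 8376 to 13914 counts in every library. A smaller entry was at 161 to 419 CPM in mTOR-/- and 285 to 353 CPM in WT. Mtor itself was counted 883, 983 and 908 times in mTOR-/- against 980, 875 and 929 times in WT, which did not separate the groups (log2 fold change 0.15, edgeR adjusted p = 0.442). Counts over the whole gene need not show the loss of a few exons, so every direction given here rests on the labels, that is, on the libraries labelled mTOR-/-. Lyz2, the locus that carries Cre, had 11695 to 14675 counts in mTOR-/- and 32743 to 57236 in WT (adjusted p = 0.00255, edgeR). Log2 CPM correlated across genes at 0.978 to 0.981 between WT libraries and at 0.952 to 0.973 between mTOR-/- libraries. Replicate 3 of mTOR-/- had 13889 genes with a count, against 14709 and 14730 in mTOR-/- replicates 1 and 2. Values without each library follow below. The methods state n = 3 for the M-MDSCs taken from WT and from Lyz-mTOR mice. Neither they nor the labels say that each library came from a separate mouse or culture, so the p-values may measure technical spread.

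Of the 7 members, 6 were tested and 3 were called: Ly6a and Ly6c2 fell and Ly6g rose in mTOR-/- M-MDSCs. Among all tested genes, 4.04% were called, 2.18% higher and 1.87% lower. With a fold change of at least 2 as a further criterion, Ly6a and Ly6g remained, beside 1.69% of all tested genes, and Ly6c2 lay just outside it at 1.998-fold lower. The groups did not overlap for 4 members, which were Ly6a, Ly6c2 and Ly6e with lower and Ly6g with higher values in mTOR-/-, beside 28.4% of all tested genes. The median log2 fold change of the 6 tested members was -0.56, against 0.00492 for all tested genes. The RNA came from bulk cells, in which fewer cells of a type and less RNA per cell cannot be told apart.

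**Figure D1:**
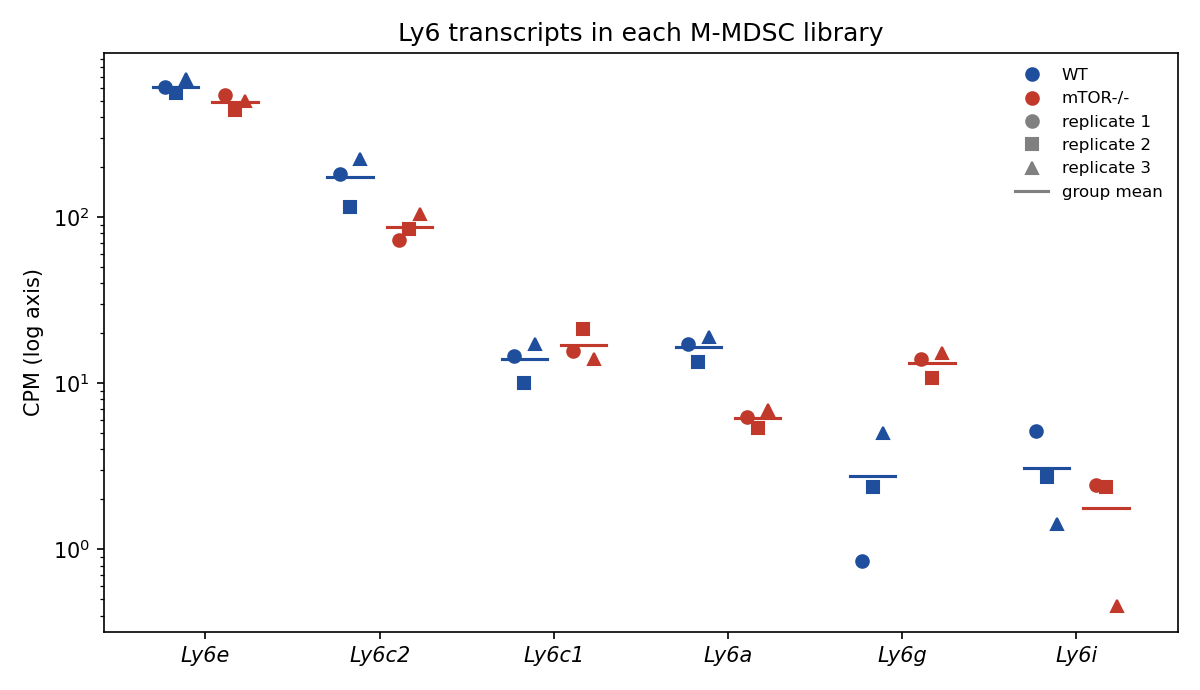
CPM (log axis) of the 6 tested Ly6 members in each of the 3 WT (blue) and 3 mTOR-/- (red) libraries. Marker shapes give the replicate number and horizontal lines the group means. Ly6a and Ly6c2 lie lower and Ly6g higher in every mTOR-/- library than in any WT library, while Ly6c1 and Ly6i overlap between the groups.

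Ly6c2 (ENSMUSG00000022584, chr15:75108158-75111970, reverse strand), which encodes the Ly6C form abundant in monocytes, was read at 72.6, 84.9 and 104 CPM in mTOR-/- replicates 1, 2 and 3. In WT replicates 1, 2 and 3 it was at 182, 116 and 226 CPM. The highest mTOR-/- library thus lay just under the lowest WT library, and the WT libraries spread more widely than the mTOR-/- ones. The group means were 87.3 ± 16.0 CPM (SD, n = 3) in mTOR-/- and 174 ± 55.5 CPM (SD, n = 3) in WT. In the fit of all libraries the log2 fold change was -0.999, with a 95% interval of -1.51 to -0.49 (adjusted p = 0.0426, edgeR). The call was lost in 4 of the 6 fits to 5 libraries. It was lost without mTOR-/- replicate 1 (adjusted p = 0.123, edgeR), mTOR-/- replicate 2 (0.0821), WT replicate 1 (0.133) and WT replicate 3 (0.159), with log2 fold changes of -0.89, -0.99, -0.97 and -0.77.

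Ly6c1 (ENSMUSG00000079018, chr15:75044018-75048830, reverse strand) encodes the other Ly6C protein, best known from endothelial cells. It was at 15.6, 21.2 and 14.0 CPM in mTOR-/- and at 14.6, 10.1 and 17.2 CPM in WT replicates 1, 2 and 3. The groups overlapped and the highest WT library exceeded 2 of the mTOR-/- libraries. The fitted change was 0.28 on the log2 scale (standard error 0.24, 95% interval -0.26 to 0.82, adjusted p = 0.535, edgeR), so the interval reaches from a fold of 0.837 to 1.76. Ly6c1 made up 17.7%, 19.9% and 11.8% of the Ly6c1 plus Ly6c2 counts in mTOR-/- replicates 1, 2 and 3, and 7.41%, 8.05% and 7.07% in WT. The mean share was 16.5% ± 4.19 (SD, n = 3) against 7.51% ± 0.498 (SD, n = 3), with no overlap (p = 0.1 in a two-sided exact permutation test, the lowest value possible with 3 against 3). This share does not depend on library size.

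With Ly6c1 and Ly6c2 counted as 1 gene, so that the division of shared reads plays no part, their summed counts were 1083, 1374 and 1546 in mTOR-/- and 2767, 1839 and 3410 in WT. The sum was lower in every mTOR-/- library, also in CPM, but did not pass the test (log2 fold change -0.85, 95% interval -1.34 to -0.37, adjusted p = 0.0601, edgeR). It passed in 1 of the 6 fits with a library left out, the one without WT replicate 2 (adjusted p = 0.016, log2 fold change -1.08).

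Ly6g (ENSMUSG00000022582, chr15:75155240-75159126, forward strand) encodes the antigen by whose absence M-MDSCs are gated. It was read at 14.1, 10.7 and 15.1 CPM in mTOR-/- replicates 1, 2 and 3, from 173, 139 and 198 counts. In WT replicates 1, 2 and 3 it was at 0.853, 2.39 and 5.06 CPM, from 12, 35 and 71 counts. Every mTOR-/- library exceeded every WT library, and the WT libraries differed among themselves far more, in proportion, than the mTOR-/- libraries. The means were 13.3 ± 2.31 CPM (SD, n = 3) and 2.77 ± 2.13 CPM (SD, n = 3). Ly6g was 4.81-fold higher in mTOR-/- (log2 fold change 2.26, standard error 0.49, 95% interval of the fold 2.24 to 10.3, adjusted p = 0.0365, edgeR), and 99.4% of tested genes had a lower log2 fold change. The direction was the same whichever library was left out, but the call stood only without WT replicate 3, where the fold was 8.13 (adjusted p = 0.0186, edgeR). It was lost without mTOR-/- replicate 1, 2 or 3 (adjusted p = 0.0944, 0.0548 and 0.0726, edgeR) and without WT replicate 1 or 2 (adjusted p = 0.0568 and 0.127), with log2 fold changes of 1.83 to 2.39.

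Set against each other, the antigens that divide granulocytic from monocytic MDSCs gave 19.4, 12.6 and 14.5 Ly6g counts per 100 Ly6c2 counts in mTOR-/- replicates 1, 2 and 3. In WT the ratio was 0.468, 2.07 and 2.24 per 100. Ly6c2 counts thus exceeded those of Ly6g in every library, and the ratio was higher in each mTOR-/- library. The counts are not divided by exon length, which is 2.74 kb for Ly6c2 and 0.942 kb for Ly6g. Per kilobase Ly6c2 also lay above Ly6g in every library, by a smaller factor. The mean log2 ratio was -2.71 ± 0.32 (SD, n = 3) in mTOR-/- and -6.27 ± 1.27 (SD, n = 3) in WT, a difference of 3.56 (p = 0.1 in the same exact permutation test).

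**Figure D2:**
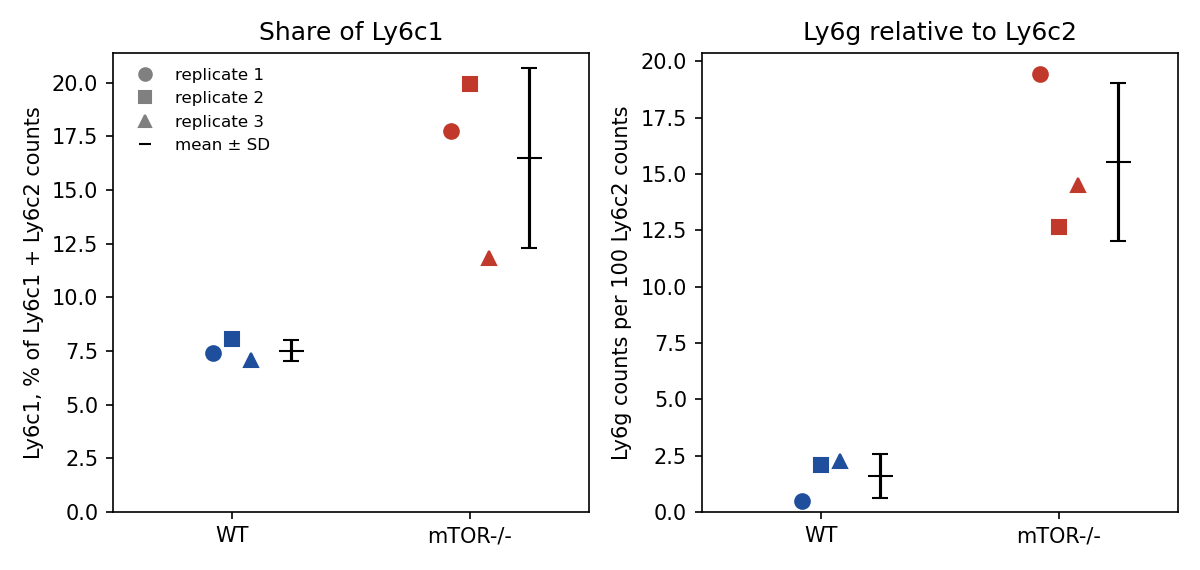
Left, Ly6c1 counts as a percentage of Ly6c1 plus Ly6c2 counts in each library, by group. Right, Ly6g counts per 100 Ly6c2 counts. Points are libraries, with marker shapes for replicate numbers, and bars are the mean ± SD of 3 libraries. Both quantities lie higher in all 3 mTOR-/- libraries than in any WT library, at 11.8% to 19.9% against 7.07% to 8.05% on the left.

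Ly6a (ENSMUSG00000075602, chr15:74994877-74998031, reverse strand), the gene of Sca-1, was read at 6.28, 5.40 and 6.88 CPM in mTOR-/- replicates 1, 2 and 3, from 77, 70 and 90 counts. In WT replicates 1, 2 and 3 it was at 17.3, 13.5 and 19.1 CPM, from 243, 198 and 268 counts. The groups were far apart compared with the spread inside each. Means were 6.19 ± 0.744 CPM (SD, n = 3) in mTOR-/- and 16.6 ± 2.84 CPM (SD, n = 3) in WT. Ly6a was 2.68-fold lower in mTOR-/- (log2 fold change -1.42, standard error 0.21, 95% interval -1.90 to -0.95, adjusted p = 0.0072, edgeR). It was the one member called in all 6 fits with a library left out, at log2 fold changes of -1.56 to -1.32 and adjusted p of 0.0098 to 0.0458. Only 0.981% of tested genes had a lower log2 fold change.

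Ly6e (ENSMUSG00000022587, chr15:74955051-74959905, forward strand) had by far the most counts of the family. It was at 547, 443 and 505 CPM in mTOR-/- replicates 1, 2 and 3, and at 606, 557 and 678 CPM in WT. All mTOR-/- values lay below all WT values, by a small margin. The log2 fold change was -0.30 (standard error 0.11, 95% interval -0.56 to -0.05, adjusted p = 0.172, edgeR), and it did not pass the test in the fit of all libraries or in any of the 6 with a library left out.

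Ly6i (ENSMUSG00000022586, chr15:74979534-74983430, reverse strand) had few reads, with 30, 31 and 6 counts in mTOR-/- and 73, 40 and 20 counts in WT, or 2.45, 2.39 and 0.459 CPM against 5.19, 2.73 and 1.42 CPM. The groups overlapped and the values of each group spread over a range wider than the difference of the means. The log2 fold change of -0.82 had a standard error of 0.67 and a 95% interval of -2.33 to 0.70 (adjusted p = 0.521, edgeR) that reaches from a fall to a rise. Ly6d (ENSMUSG00000034634, chr15:74762056-74763620, reverse strand) had 2 counts in WT replicate 2 and 0 in the other 5 libraries, and was not tested. A count of 0 allowed up to 0.211 to 0.244 CPM in those 5 libraries, by counting error alone.

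**Figure D3:**
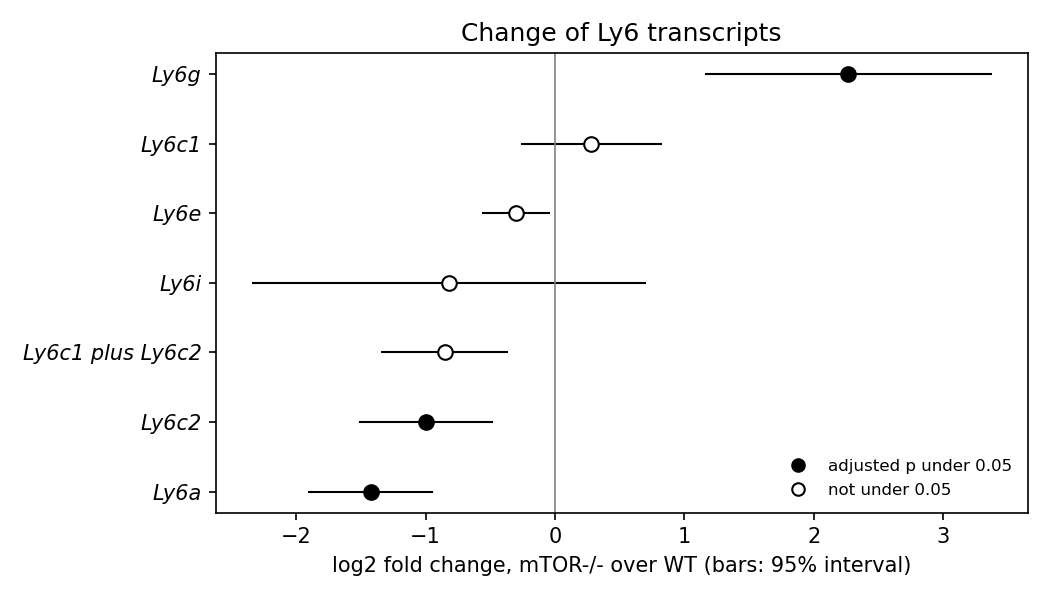
Log2 fold change, mTOR-/- over WT, of the 6 tested Ly6 members and of Ly6c1 plus Ly6c2 counted as 1 gene, with 95% intervals from edgeR. Filled points have an adjusted p under 0.05. Ly6g lies at 2.26, Ly6c2 at -0.999 and Ly6a at -1.42, and the interval of Ly6i spans 0.

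**Figure D4:**
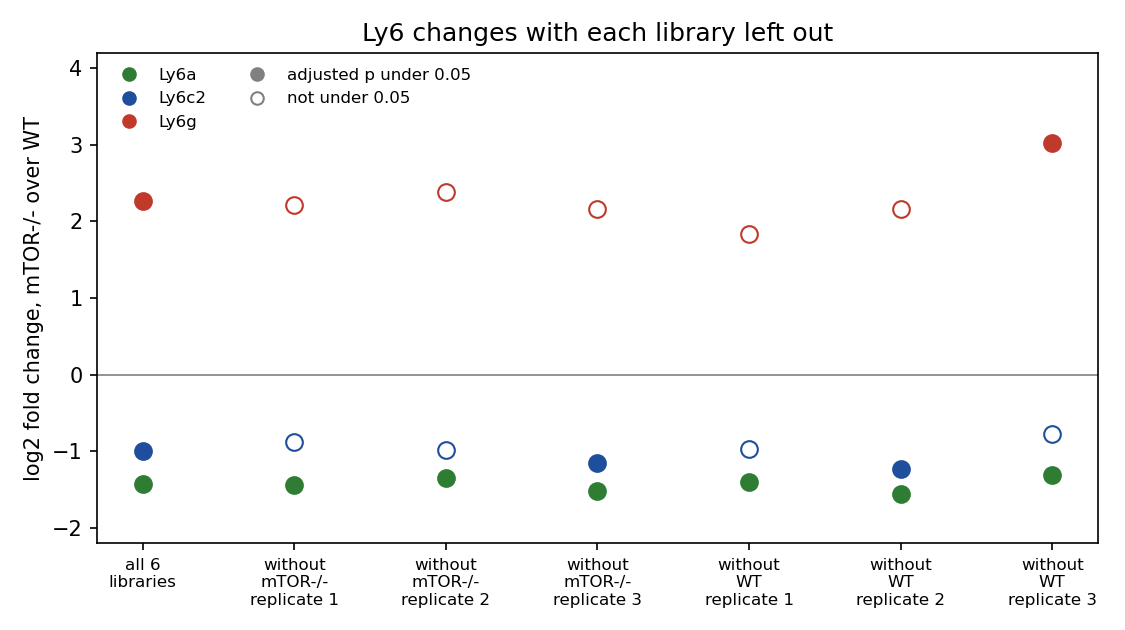
Log2 fold changes, mTOR-/- over WT, of Ly6a (green), Ly6c2 (blue) and Ly6g (red) from all 6 libraries and with each library left out. Filled points have an adjusted p under 0.05. Ly6a is filled throughout, Ly6c2 is open in 4 and Ly6g in 5 of the 6 reduced fits, and no point changes sides of 0.

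To order the members by level, CPM were divided by the length of the exons of each gene joined over its transcripts in GENCODE M21. In WT the mean levels per kilobase were 162 CPM for Ly6e, 63.7 for Ly6c2, 13.8 for Ly6a, 8.32 for Ly6c1, 2.94 for Ly6g and 2.69 for Ly6i. In mTOR-/- the order was Ly6e at 132 CPM per kilobase, Ly6c2 at 31.8, Ly6g at 14.1, Ly6c1 at 10.1, Ly6a at 5.14 and Ly6i at 1.53. Ly6g and Ly6a thus exchanged places around Ly6c1. The ranges over libraries overlapped between Ly6g and Ly6i in WT (0.905 to 5.37 against 1.23 to 4.49 CPM per kilobase). They also overlapped between Ly6g and Ly6c1 in mTOR-/- (11.4 to 16.1 against 8.35 to 12.6). All other neighbours in either order kept apart. The deposited FPKM were not used for this order, since the length they imply exceeded the joined exons for each of the 6 tested members. It exceeded the whole gene span for Ly6a, Ly6c2 and Ly6e. For Ly6e it came to 12.5 kb, against 3.78 kb of joined exons and a gene span of 4.86 kb.

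**Figure D5:**
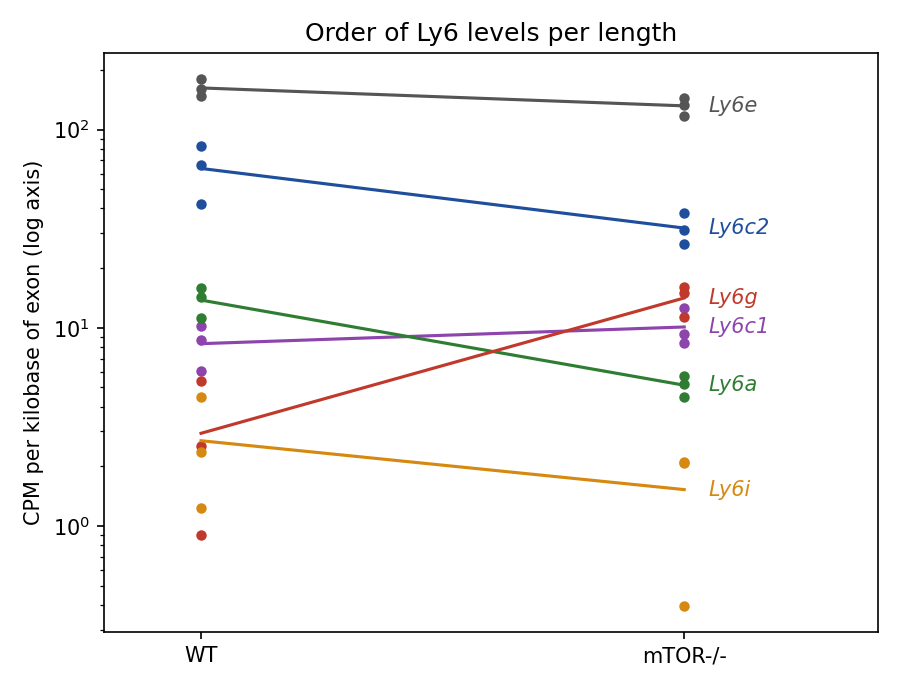
CPM per kilobase of exon (log axis) of the 6 tested Ly6 members in WT and mTOR-/- M-MDSCs. Points are libraries and lines join the group means. The Ly6g line climbs from 2.94 to 14.1 and crosses those of Ly6c1 and Ly6a, while Ly6e and Ly6c2 keep the upper places.

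The members span 397 kb of chromosome 15, and the genes around them gave no call. Within 250 kb of this span the count table lists 39 other genes, of which 26 had 0 counts in every library and 4 were tested. None of the 4 passed (edgeR, and none at an unadjusted p under 0.05, with DESeq2 or with edgeR's exact test). I830127L07Rik, a transcribed pseudogene of the family between Ly6c2 and Ly6g at chr15:75131377-75135128, had 185, 216 and 248 counts in mTOR-/- and 251, 285 and 354 counts in WT. It did not pass the test, at -0.30 on the log2 scale with a standard error of 0.18 (adjusted p = 0.377, edgeR), while Ly6c2 on one side fell and Ly6g on the other rose. Arc, Jrk and Them6 had log2 fold changes of 0.43, 0.33 and -0.027 (adjusted p = 0.722, 0.81 and 0.981, edgeR). Of 38 further genes of the Ly6 and urokinase receptor family across the genome, 25 had 0 counts throughout and 5 were tested, I830127L07Rik among them. None passed (edgeR, 1 at an unadjusted p under 0.05, 0 with DESeq2 and 0 with edgeR's exact test), and the difference from the 7 members was not tested. Plaur, the urokinase receptor of myeloid cells, was at 746 CPM in mTOR-/- and 794 CPM in WT. Cd177, a neutrophil antigen, was at 35.8 CPM and 47.9 CPM (log2 fold change -0.42, adjusted p = 0.149, edgeR). Cd59a was at 1.65 CPM in mTOR-/- and 3.08 CPM in WT (adjusted p = 0.608, edgeR), and Ly6g5b at 0.698 and 0.913 CPM (adjusted p = 0.798).

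All Ly6 antigens need a GPI anchor to reach the surface. Of 30 genes that build or attach it, 29 were tested and none passed (edgeR, 7 at an unadjusted p under 0.05, 2 with DESeq2 and 2 with edgeR's exact test). Their median log2 fold change was 0.026, while the list summed to 939 to 990 CPM per mTOR-/- library and 891 to 918 CPM per WT library. Of those with the highest levels, Pigm, the first mannosyltransferase of the anchor, was at 142 CPM in mTOR-/- and 98.5 CPM in WT (adjusted p = 0.0855, edgeR). Pign, which adds an ethanolamine phosphate, was at 76.5 and 65.1 CPM, and Pigs, a subunit of the transamidase that attaches the anchor, at 66.6 and 73.0 CPM (adjusted p = 0.338 and 0.572).

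Since Ly6a and Ly6e are known targets of interferon, the interferon-stimulated genes were counted beside them. Of 43 listed genes 33 were tested, 2 rose and 1 fell, or 3 in all beside 4.04% of all tested genes, and the median log2 fold change was 0.07. Mx1, an antiviral GTPase, rose 3.07-fold (log2 fold change 1.62, adjusted p = 0.00642, edgeR). Cxcl10, a T cell chemoattractant, rose 5.94-fold from 1.09 to 6.55 CPM (adjusted p = 0.0243). Bst2 (tetherin), itself a GPI-anchored surface protein, fell from 91.9 to 59.1 CPM (log2 fold change -0.64, adjusted p = 0.0367). Of 13 genes of interferon receptors and their signalling only Tyk2, a Janus kinase, passed, at 204 CPM in mTOR-/- and 143 CPM in WT (adjusted p = 0.0387, edgeR).

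Markers of the cell types that Ly6 antigens define moved in both directions. Of 20 neutrophil markers 19 were tested, and the list summed to between 3968 and 4167 CPM per mTOR-/- library and between 3524 and 3888 CPM per WT library, with none at 0 in every library. The cytokine receptor Csf3r and the calgranulin S100a8 rose, with log2 fold changes of 0.63 and 0.62 (adjusted p = 0.0314 and 0.0305, edgeR). The granule genes Ltf (lactoferrin), Ctsg (cathepsin G) and Ngp fell, with log2 fold changes of -2.04, -1.39 and -0.56 (adjusted p = 0.00214, 0.0207 and 0.0343). Ly6g rose beside 2 neutrophil markers and against 3, and their part in its rise was not tested. For 18 monocyte markers 16 entries were tested, with Itgam under separate entries, so fewer than 16 markers were covered. Of these markers 6 rose, with none lower, among them Cd14, Fn1, Csf1r, F13a1 and Chil3. The summed level of the list was 3790 to 4088 CPM in mTOR-/- and 2769 to 3140 CPM in WT. Csf1r, the receptor that monocytes need, was at 391 CPM in mTOR-/- and 277 CPM in WT, and the lipopolysaccharide receptor gene Cd14 at 216 and 112 CPM. Ly6c2 fell while these monocyte genes rose.

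Of 10 markers of stem and progenitor cells, which also carry Sca-1, all were tested and 2 fell, with none higher. Kit, the stem cell factor receptor, was at 74.9 CPM in mTOR-/- and 155 CPM in WT, and the transcription factor Gata2 at 213 and 369 CPM (log2 fold changes -1.05 and -0.79, adjusted p = 0.00139 and 0.00973, edgeR). The list summed to 348 to 373 CPM in mTOR-/- and 542 to 638 CPM in WT, most of it from these genes. The other 8 did not pass the test, and the median log2 fold change of the list was 0.13, above 0 where the sum was lower. Of 7 mast cell and basophil markers, a lineage that also carries Kit and Gata2, 6 were tested and Mcpt4 had 0 counts throughout. Cpa3, a mast cell protease, was 5.15-fold lower at 135 CPM against 694 CPM (adjusted p = 9.53e-05, edgeR), and Mcpt8, a basophil protease, was 2.13-fold lower (adjusted p = 0.0353). The other 4 did not pass. Fcer1a lay the other way, at 3.86 CPM in mTOR-/- and 2.82 CPM in WT (adjusted p = 0.61, edgeR), while Ms4a2, Prss34 and Tpsb2 lay lower. The list summed to 156 to 221 CPM in mTOR-/- and 721 to 900 CPM in WT, most of it from Cpa3. The called genes Kit, Gata2, Cpa3 and Mcpt8 moved in the same direction as Ly6a, and the part of the cells that carry them in its fall was not tested.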

How the data were processed

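RNAseq of 3 mTOR-/- and 3 WT libraries was analysed, grouped by the sample titles. The counts per gene that the authors deposited are whole numbers, made with HTSeq after alignment to mm10 with Bowtie2 per their methods. The submitters' processing notes name HISAT2 2.0.4, StringTie 1.3.0, GRCm38.p4 and mm9 instead, and the positions of the members equalled those of GENCODE M21 on GRCm38. Strand setting and annotation release are not given in the sources used here. The authors also deposited FPKM values, used only for 1 ratio and their implied lengths. Their own comparison of the groups (means, fold changes and p-values) was not used, nor were 24 repeated columns of per-sample values.

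Counts were analysed with R 4.3.3 and edgeR 4.0.16: filterByExpr (minimum count 10, minimum total 15), TMM, quasi-likelihood F test, Benjamini-Hochberg adjustment over all tested genes. The biological coefficient of variation was 19.0%. Alternatives were DESeq2 1.42.0, the exact test of edgeR, upper-quartile and RLE factors, other filters, each library left out, the replicate number as a block, and Ly6c1 and Ly6c2 counted as 1 gene. The scripts were tested on simulated data. Sequences were aligned with Biopython 1.88. Named genes are the members, tested genes within 250 kb, the called genes of each list (or its leading genes), of which 1 is not reported here, and the 3 tested genes of at least 10 CPM most like each member.  The members and lists were chosen with earlier results of these data known. Intervals and limits for counts cover counting error only where they rest on 1 library, since copied reads are not independent molecules.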

Additional observations from a re-analysis of the deposited data

How the results depend on the processing

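Among the tested members, every log2 fold change kept its sign under every alternative run. Under the 7 alternatives that keep all 6 libraries and count Ly6c1 and Ly6c2 apart, Ly6a, Ly6c2 and Ly6g stayed past the threshold and Ly6c1, Ly6e and Ly6i did not; Ly6i gave no value with at least 10 counts in every library. Adjusted p in these fits was 6.42e-07 to 0.0151 for Ly6a, 0.000225 to 0.041 for Ly6c2 and 7.95e-05 to 0.0367 for Ly6g. With Ly6c1 and Ly6c2 counted as 1 gene the log2 fold change was -0.85 and no longer passed. With each library left out in turn, log2 fold changes were -1.23 to -0.77 for Ly6c2, 1.83 to 3.02 for Ly6g and -1.08 to -0.63 for the summed Ly6c genes. The number of members called was then 1 to 2, also with the fold criterion, against 3 and 2 in the full data. With the fold criterion it was 3 under DESeq2, RLE factors, no low-count filter and at least 10 counts in every library, where Ly6c2 crossed that limit. Over all genes, 507 calls became 1144 with DESeq2's Wald test, 1001 with edgeR's exact test and 173 to 513 with a library left out. With the fold criterion, 212 calls became 357, 379 and 114 to 229. These fits have fewer libraries, and a group left with 2 rests on the spread of the others.

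The replicate numbers did not pair the libraries: deviations from the group means of same-numbered libraries correlated at -0.0764, -0.0252 and -0.0608. With the replicate number as a block, 279 genes were called, and no member's call changed. What depth limits is Ly6i and Ly6d, and Ly6g in WT replicate 1, which rests on 12 counts.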

Other observations

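Markers of other cells that a bone marrow culture can hold were read beside the Ly6 genes. Ccr7, a migration receptor of dendritic cells, was the one called of 6 tested dendritic cell markers, at 58.7 CPM in mTOR-/- and 24.5 CPM in WT (adjusted p = 0.0314, edgeR). T and NK cell markers were called for 0 of 3 tested genes (edgeR, 1 at an unadjusted p under 0.05, 0 with DESeq2 and 0 with edgeR's exact test), and Cd3e, Cd4, Cd8a, Gzma and Ncr1 had 0 counts in every library. Thy1 was at 92.2 CPM in mTOR-/- and 130 CPM in WT (adjusted p = 0.141, edgeR). Lck was at 2.24 and 3.79 CPM and Nkg7 at 1.94 and 2.57 CPM (adjusted p = 0.323 and 0.772, edgeR). Of 3 tested B cell and B progenitor markers, whose lineage Ly6d marks, Il7r alone was called and fell. Cd79a and Cd79b lay the other way, with log2 fold changes of 0.85 and 0.57 (adjusted p = 0.466 and 0.581, edgeR), and Igll1 had 0 counts throughout. Of the plasmacytoid dendritic cell markers Siglech and Klk1 had 0 counts throughout, and Bst2 alone was called. Of the erythroid and megakaryocyte markers Itga2b fell. Among 5 tested resident macrophage markers Clec4f alone was called and rose, with 0 counts in each WT library and 5.79 to 13.7 CPM in mTOR-/-. Adgre1 lay the other way, at 482 CPM in mTOR-/- and 614 CPM in WT (adjusted p = 0.145, edgeR). The list summed to 549 to 665 CPM in mTOR-/- and 662 to 745 CPM in WT, with a median log2 fold change of 0.036. None of these lists was tested for a part in the Ly6 changes.

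The tested genes of at least 10 CPM whose log2 CPM followed a member most closely over the 6 libraries were found by Pearson's r, as a description over 6 points that share the group difference. They were Tmem161a, Lta4h and Pxk for Ly6a (r = 0.993 to 0.996) and Tmx4, Pbk and Rbfa for Ly6c2 (r = 0.977 to 0.993). For Ly6g they were Car2, H2-Aa and Dpm1 (r = 0.987 to 0.992), the last of which is in the list of GPI anchor genes. For Ly6e they were Mis18a, Rbx1 and Mrpl36 (r = 0.984 to 0.997), for Ly6c1 Tbl3, Aplf and Pus10 (r = 0.963 to 0.971) and for Ly6i Grcc10, Frmd8 and Pdcd2l (r = 0.990 to 0.998). Between members, Ly6a and Ly6c2 followed each other at r = 0.921, while Ly6c1 and Ly6c2 stood at r = -0.0791.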
